A study of Mus musculus with 17 samples.

Results

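Astrocyte genes were examined in hippocampal RNA-seq libraries of mice that had lost CBP in excitatory neurons and of their controls, before and after chemical kindling. The set holds 31 genes of the 55471 in the count table. They were picked by name from knowledge of the cell type, with earlier results of these data known, and each name matched a single gene identifier. Of these, 23 are homeostatic genes that mark resting astrocytes and 8 are genes that rise in reactive astrocytes (Gfap, Vim, Serpina3n, Cd44, Osmr, Timp1, C4b and S1pr3). All 31 had counts in every library.

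The series holds 17 libraries of total RNA, each from the hippocampus of a single C57BL/6 male aged 3 to 6 months. CBP-ifKO mice carry floxed Crebbp alleles and creERT2, a tamoxifen-inducible Cre recombinase, under the Camk2a promoter, which drives recombination in forebrain excitatory neurons and not in astrocytes. By the study's methods the Controls were creERT2-negative littermates, although a label names the creERT2 line for them too. Both genotypes received tamoxifen 5 times (20 mg/mL). Sal mice were not kindled and got saline, PTZ0 mice went through the kindling schedule, a series of doses of the GABA-A antagonist pentylenetetrazole (PTZ), and ended with saline, and PTZ45 mice went through the same series and ended with 45 mg/kg of PTZ. Kindled means here that a mouse was put through this schedule, and says nothing of whether it came to have seizures. The paper places the final dose a week after kindling. The tissue was collected 45 min after this final dose. Each of the 6 groups had 3 libraries, apart from Control PTZ45 with 2.

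Astrocytes clear glutamate and potassium from around synapses, turn glutamate into glutamine, couple to each other through gap junctions and cover blood vessels with endfeet rich in the water channel Aqp4. After injury, inflammation or seizures they can become reactive, a state in which the intermediate filament genes Gfap and Vim and secreted proteins such as Serpina3n, an inhibitor of serine proteases, are made in larger amounts. In the hippocampus Gfap is also expressed at rest, in mature astrocytes and in the radial stem cells of the dentate gyrus.

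The main pattern was a lower level of a subset of these genes in CBP-ifKO mice. Serpina3n stood at 39.7% of its Control mean across all CBP-ifKO libraries, with no overlap between the genotypes. With the treatments combined 13 of 31 members were called, against 19.3% of the 18682 genes tested. Of these 12 fell in CBP-ifKOs (11.5% of all genes fell) and 1 rose (7.76% rose). The homeostatic genes among them moved little, with Htra1, Aldoc, Glul and Slc1a3 at 84.7%, 84.6%, 87.8% and 88.8% of the Control mean. The members were not matched in counts to all genes tested, and small differences are harder to call in genes with few counts. No member was called in any comparison of treatments within a genotype. The genotypes were sequenced largely on different lanes, and no member was called once the lane was a term in the fit, where standard errors were larger. The log2 fold changes then stood at -0.97 for Serpina3n, -0.41 for Htra1, -0.22 for Aldoc, -0.16 for Slc1a3 and -0.11 for Glul, against -1.33, -0.24, -0.24, -0.18 and -0.19 without the term. As a share of the value without the term, the shrinkage was largest for S100b (-0.06 against -0.24) and Slc4a4 (-0.000453 against 0.08). Osmr (-0.19 against -0.37) and C4b (-0.14 against -0.25) followed. In log2 units Serpina3n shrank most. The fit with the lane as a term has as many terms as groups and takes each treatment difference as equal in both genotypes. Its genotype value adds up CBP-ifKO Sal against Control PTZ45, CBP-ifKO PTZ45 against PTZ0 and Control PTZ0 against Sal. A treatment difference found in a single genotype thus enters it.

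Depth ran from 5831992 to 18735643 counts per library. Crebbp was lower in all 9 CBP-ifKO libraries (1061 to 1337 normalized counts, scaled with DESeq2 over the 17 libraries) than in all 8 Control libraries (1824 to 2429), although the exons outside the deleted part still count. Esr1, part of which is carried by creERT2, lay at 41 to 77.8 in Controls and at 703 to 941 in CBP-ifKOs. Fos, an immediate early gene, lay at 2915 and 2483 in Control PTZ45 and at 163 to 288 in CBP-ifKO PTZ45, against 13.4 to 62.4 in the libraries without a last PTZ dose. Markers of excitatory neurons were high in every library, with a summed level of 64492 to 76798 for the 7 listed genes. Markers of the choroid plexus, a tissue next to the hippocampus, set 5 libraries apart. The 7 listed genes summed to 10865 to 44537 in Control Sal replicate 2, Control PTZ0 replicate 2, CBP-ifKO Sal replicate 1, CBP-ifKO PTZ0 replicate 3 and CBP-ifKO PTZ45 replicate 2, and to 446 to 1164 in the other 12. The column names also give the sequencing lane. Lane 3 held Control Sal and Control PTZ0, lane 4 held CBP-ifKO Sal and Control PTZ45, and lane 5 held CBP-ifKO PTZ0 and CBP-ifKO PTZ45, so that in each treatment the genotype and the lane cannot be told apart. The same holds for treatment and lane in Control PTZ45 against Sal and PTZ0 and in CBP-ifKO PTZ0 and PTZ45 against Sal.

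The abundance of the members was compared as RPKM, computed here from the counts and the exon length of each gene. In Control Sal (n = 3, mean ± SD) the glutamate transporter Slc1a2 (291 ± 22.1) and glutamine synthetase, Glul (289.6 ± 6.48), stood highest and did not differ beyond their spread. They were followed by the glycolytic enzyme Aldoc (165 ± 7.86), Ndrg2 (132 ± 3.61), the glutamate transporter Slc1a3 (72.1 ± 2.38) and the calcium-binding protein S100b (54.4 ± 1.91). Gfap ranked highest of the reactive genes (47 ± 6.36), at position 7 of 31, with an SD that overlapped those of its neighbours S100b and Mlc1 (43.8 ± 5.62). Aqp4 and the bicarbonate transporter Slc4a4 stood at 27.5 ± 1.88 and 27.3 ± 0.412, the connexins Gja1 and Gjb6 at 18.8 ± 1.07 and 15.5 ± 1.98, and Aldh1l1, an enzyme of folate metabolism, at 8.99 ± 0.403. Serpina3n stood at 12 ± 0.953, and in normalized counts it had the widest range of all members, with its highest of 17 libraries at 4.23 times its lowest. The other reactive genes were low, with Vim at 5.53 ± 0.382, C4b at 4.59 ± 0.428, Timp1 at 1.63 ± 0.287, S1pr3 at 1.3 ± 0.115, Osmr at 0.671 ± 0.0568 and Cd44 at 0.601 ± 0.219. Of the 7 lowest members, 6 were reactive genes, the exception being Sox9 (3.3 ± 0.209).

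**Figure D1:**
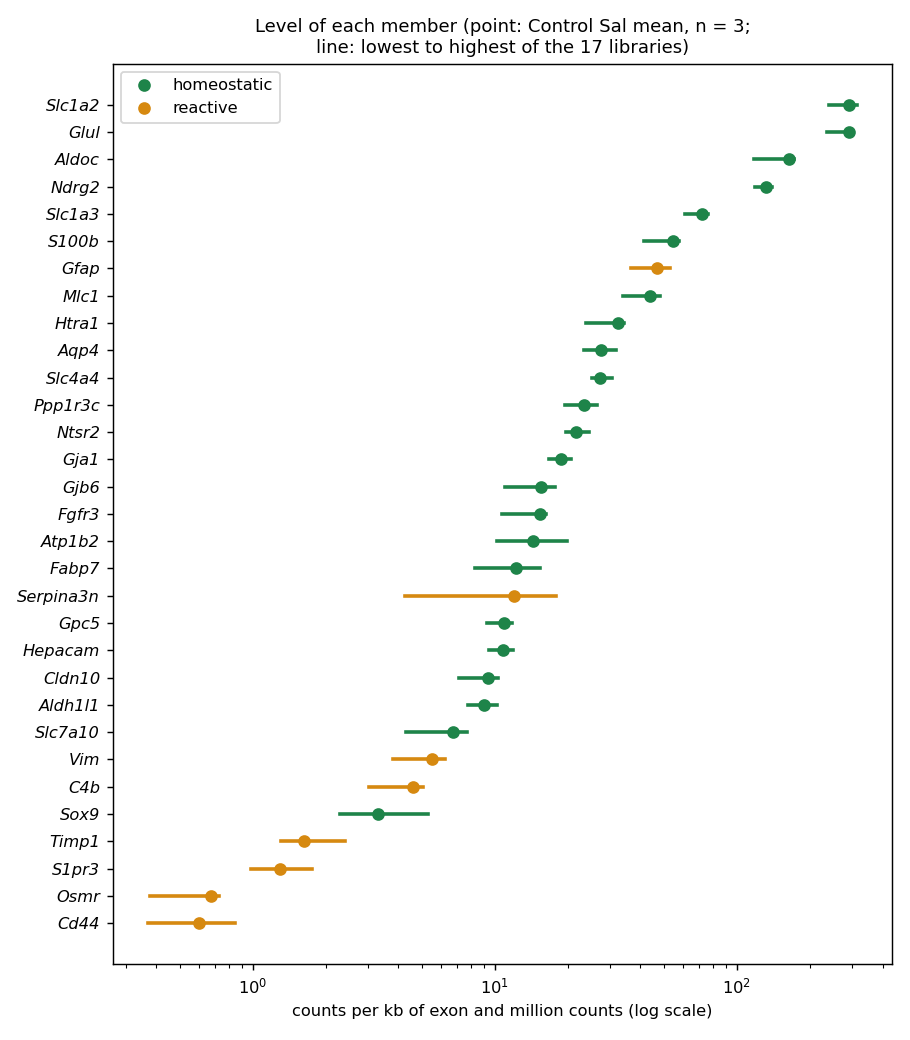
Level of the 31 members in RPKM (log axis), with the Control Sal mean of 3 libraries as a point and the lowest to highest of the 17 libraries as a line. The line of Serpina3n is the longest, while Slc1a2 and Glul head the order and Osmr and Cd44 close it.

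Serpina3n was the member that set the genotypes apart most. Control mice had 309, 325 and 284 in Sal, 363, 348 and 458 in PTZ0 and 429.8 and 241 in PTZ45 (normalized counts, 1 value per library). CBP-ifKO mice had 109.5, 135 and 159 in Sal, 158, 133 and 122 in PTZ0 and 108, 151 and 156 in PTZ45. Every CBP-ifKO value was thus under every Control value, with 159 as the highest of the former and 241 as the lowest of the latter, and the Control PTZ45 pair was the most scattered. The genotypes differed on the log2 scale by -1.19 (SE 0.17, adjusted p = 1.8e-09) in Sal, -1.51 (SE 0.15, adjusted p = 2.3e-20) in PTZ0 and -1.28 (SE 0.24, adjusted p = 9.9e-06) in PTZ45 by the Wald test of DESeq2. These 3 comparisons share no library. In Sal and PTZ0 all 13 alternatives kept the call. In PTZ45 the call was lost in 4 of 12 (adjusted p from 2.4e-07 to 0.96 over the alternatives). Among these were the removal of Control PTZ45 replicate 1 (-0.80), which leaves 1 Control library that is assumed to vary like the CBP-ifKO libraries, and that of CBP-ifKO PTZ45 replicate 2 (-1.34), which is also the 1 library of PTZ45 rich in choroid plexus genes. With the treatments combined it came to -1.33 (SE 0.11, adjusted p = 1.8e-28). On lane 4, the lane that held both genotypes, CBP-ifKO Sal was compared with Control PTZ45 and the value was -1.33 (SE 0.25, adjusted p = 8.9e-06), a comparison of mice that also differ in treatment. With the lane as a term the value was -0.97 (SE 0.34, adjusted p = 0.25), the 1 of 27 alternatives that lost the call. That value takes in the log2 difference of PTZ0 from Sal in Controls, which was 0.35, against 0.03 in CBP-ifKOs.

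Serpina3n belongs to a cluster of near copies on chromosome 12, and reads that fit several copies would have been discarded by the mapping filter of the authors. It held 4134 counts over the 17 libraries, while the most counted of its 10 listed neighbours, Serpina3g, held 76. The gene lies at chr12:104406729-104414329 (GRCm38, plus strand). Its promoter is shown because this gene carries the clearest difference, and because Serpina3n and Gfap are known targets of the transcription factor STAT3 in reactive astrocytes. The RefSeq promoter table (GRCm38.p6) had an entry for 27 of the 31 members, with none for Aqp4, Sox9, Atp1b2 and C4b. The 250 bases before the RefSeq start of Serpina3n, at chr12:104406458-104406707 on the plus strand, read 5′ to 3′ as follows.
Serpina3n: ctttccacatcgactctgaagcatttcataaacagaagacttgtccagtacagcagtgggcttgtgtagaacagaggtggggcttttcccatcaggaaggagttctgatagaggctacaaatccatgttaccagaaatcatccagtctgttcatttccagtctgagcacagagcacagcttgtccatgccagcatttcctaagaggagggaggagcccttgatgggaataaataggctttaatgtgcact

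The letters TTCNNNGAA, the core of STAT sites, which read the same on both strands, were searched in these 250 bases before each start. Serpina3n and Gfap had no match. Of the 27 members with an entry 3 had one (11.1%), against 8.13% of 27025 genes, and a match is a description of letters only. For Aldoc and Ntsr2 the RefSeq start lies downstream of the first base of the gene in the Ensembl annotation. The matches are shown in capitals with 8 bases on each side, since they fall in Aldoc and Slc1a3, which fell in CBP-ifKOs, and in the neurotensin receptor gene Ntsr2, which was not called.
Aldoc, chr11:78324066-78324090, plus strand: gggccagaTTCAGTGAAagaagagc
Aldoc, chr11:78324107-78324131, plus strand: gcagcagtTTCCAGGAAgacctgtg
Slc1a3, chr15:8710887-8710911, minus strand: caggatccTTCCAAGAAatttcagt
Ntsr2, chr12:16653400-16653424, plus strand: tttggaggTTCCCAGAAaggaggtg

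The other reactive genes were then compared between the genotypes. With the treatments combined, 3 of the 8 reactive members fell (Serpina3n, Osmr and C4b) and none rose, where 11.5% of all genes fell and 7.76% rose. The median log2 fold change of the 8 was -0.20, against 0.01 over all 18682 genes tested. Osmr encodes the receptor subunit for oncostatin M, a cytokine of the interleukin 6 family. Controls had 106, 91.1 and 103 in Sal, 103, 96 and 102 in PTZ0 and 104 and 96.7 in PTZ45. CBP-ifKOs had 96.1, 60.2 and 65 in Sal, 54.8, 74.5 and 89.1 in PTZ0 and 70.4, 92 and 94.3 in PTZ45. Of the 9 CBP-ifKO libraries 6 lay below every Control library, and 3 lay among them. On the log2 scale Osmr differed by -0.37 (SE 0.11, adjusted p = 0.0092) with the treatments combined, and no treatment alone gave a call (-0.41, -0.44 and -0.23 in Sal, PTZ0 and PTZ45). Osmr stood at -0.19 (SE 0.38) with the lane as a term and at -0.42 (SE 0.30) within lane 4, neither of them called. Without the 5 libraries rich in choroid plexus genes it was called at -0.55 (SE 0.14).

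C4b encodes a component of the complement cascade. In Controls it had 303, 356 and 306 in Sal, 305, 296 and 303 in PTZ0 and 294 and 231 in PTZ45. In CBP-ifKOs it had 252, 255 and 265 in Sal, 268, 223 and 251 in PTZ0 and 229, 207 and 296 in PTZ45. The genotypes overlapped in PTZ45 and nowhere else. Its log2 fold change was -0.25 (SE 0.07, adjusted p = 0.0061) with the treatments combined, -0.32 (SE 0.14, adjusted p = 0.3) in Sal, -0.29 (SE 0.13, adjusted p = 0.18) in PTZ0 and -0.11 (SE 0.19, adjusted p = 0.94) in PTZ45. Within lane 4 it was -0.03 (SE 0.18, adjusted p = 0.98) and with the lane as a term -0.14 (SE 0.24). C4a, its near copy on chromosome 17, held 292 counts over all libraries against 4803 for C4b.

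The 2 intermediate filament genes were not called. Gfap had 2424, 2758 and 2138 in Sal, 2618, 2154 and 2493 in PTZ0 and 2107 and 2292 in PTZ45 in Controls. In CBP-ifKOs Gfap had 1856, 2268 and 2379.5 in Sal, 2119.7, 2126 and 2030.4 in PTZ0 and 2369.9, 1878 and 2443 in PTZ45. The genotypes overlapped in Sal and in PTZ45, while all 3 CBP-ifKO libraries of PTZ0 lay below the Controls. For Gfap the log2 fold change was -0.13 (95% interval -0.26 to 0.00) with the treatments combined, with an adjusted p of 0.17, and -0.21 (95% interval -0.36 to -0.07) in PTZ0, with an adjusted p of 0.059. Vim had 336, 328 and 304 in Sal, 334, 329 and 345 in PTZ0 and 326 and 288 in PTZ45 in Controls. In CBP-ifKOs Vim had 342, 218 and 274 in Sal, 234, 284 and 349 in PTZ0 and 251, 305 and 361 in PTZ45, more scattered than in Controls and overlapping with them in Sal, PTZ0 and PTZ45. The difference in Vim was -0.14 (95% interval -0.32 to 0.03) with the treatments combined (adjusted p = 0.28). Vim stood at -0.25 (SE 0.10) without the libraries rich in choroid plexus genes and at 0.01 (SE 0.28) with the lane as a term, neither called. Of the low genes, Cd44, a hyaluronan receptor, had 30.3 to 69.5 normalized counts over the 17 libraries and a log2 fold change of -0.28 ± 0.18 (SE) that was not called with the treatments combined. Without the 5 libraries rich in choroid plexus genes Cd44 was called at -0.58, whereas with the lane as a term it stood at 0.41 (SE 0.56). Timp1, an inhibitor of matrix proteases, had 15.2 to 25.2 and a log2 fold change of 0.13 ± 0.20 (SE), and S1pr3, a receptor for sphingosine 1-phosphate, 57.6 to 97.1 and -0.00 ± 0.11 (SE), and neither was called.

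Among the 23 homeostatic members 9 fell in CBP-ifKOs with the treatments combined, 1 rose and 13 were not called, where 11.5% of all genes fell and 7.76% rose. Their median log2 fold change was -0.11, and 19 of the 23 lay below 0. In bulk tissue a smaller number of astrocytes and less RNA per astrocyte cannot be told apart. In the single treatments fewer members were called. In Sal 3 of 31 members were called, all of them lower (Serpina3n, Aldoc and Slc1a3), where 2.04% of the 15004 genes tested were called and 1.77% were lower. In PTZ0 4 of 31 were called, all lower too (Serpina3n, S100b, Aldoc and Glul), where 6.68% of 12752 genes were called and 5.25% were lower. In PTZ45 1 of 31, Serpina3n, was called lower, where 3.07% of 15224 genes were called and 2.82% were lower. Since these comparisons share no library, their directions were also counted. Values below 0 in all 3 treatments were found for 18 of 31 members (13 homeostatic and 5 reactive), against 26.4% of 18682 genes, and above 0 in all 3 for Slc4a4 and Timp1, against 27.1%. The lanes are still shared between treatments.

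**Figure D2:**
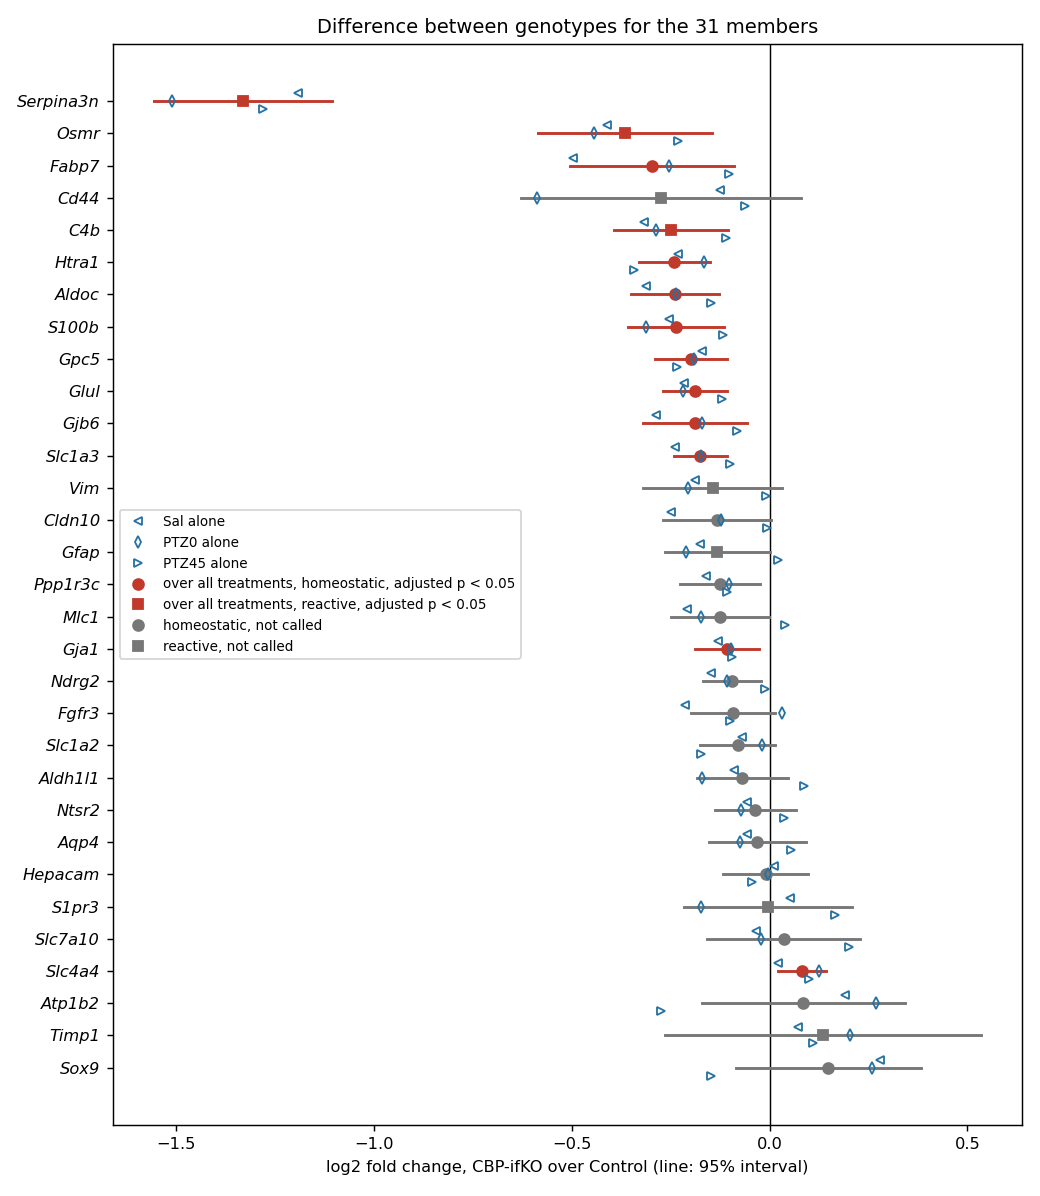
Log2 fold change of CBP-ifKO over Control for the 31 members, with the treatments combined (filled symbols, 95% interval as a line) and in Sal, PTZ0 and PTZ45 alone (open symbols), with members called over all treatments in red. Serpina3n stands apart at -1.33, and 26 of the 31 filled symbols lie below 0.

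Htra1, a secreted serine protease, was the only other member whose genotypes did not overlap. Controls had 1124, 1085 and 1239 in Sal, 1058, 1088 and 1064 in PTZ0 and 1102 and 1205 in PTZ45, so that the lowest was 1058. The CBP-ifKO libraries had 908, 1050.0 and 998 in Sal, 946, 972 and 942 in PTZ0 and 920.0, 828 and 979 in PTZ45, the highest being 1050.0, so the gap between genotypes was small. Its log2 fold change was -0.24 (SE 0.05, adjusted p = 5.1e-06) with the treatments combined. Over all genes tested, 2.16% had every CBP-ifKO library below every Control library, and 2 of the 31 members did. The value of Htra1 was -0.23 (SE 0.12, adjusted p = 0.37) within lane 4 and -0.41 (SE 0.14, adjusted p = 0.24) with the lane as a term.

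The genes of glutamate handling differed by small amounts. Slc1a3 had 7603, 7690.4 and 7420.4 in Sal, 7456, 7489 and 7989 in PTZ0 and 7348 and 7709.7 in PTZ45 in Controls. Its CBP-ifKO values were 6246, 6362 and 6690.0 in Sal, 6695, 7205 and 6439 in PTZ0 and 6974, 6604 and 7449 in PTZ45. All CBP-ifKO libraries but PTZ45 replicate 3 lay below every Control library. The log2 fold change of Slc1a3 was -0.24 (SE 0.07, adjusted p = 0.032) in Sal, -0.17 (SE 0.06, adjusted p = 0.051) in PTZ0, -0.10 (SE 0.08, adjusted p = 0.77) in PTZ45 and -0.18 (SE 0.03, adjusted p = 1.0e-05) with the treatments combined.

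Glul, which turns the glutamate taken up into glutamine, had 13571, 13377 and 13489 in Sal, 13099, 13512 and 13064 in PTZ0 and 12622 and 13321 in PTZ45 in Controls. In CBP-ifKOs Glul had 11054, 11108 and 12750.0 in Sal, 11045, 11991 and 11025 in PTZ0 and 11833, 10768 and 13139 in PTZ45, and replicate 3 of Sal and of PTZ45 were the 2 that reached the Control range. Its log2 fold change was -0.22 (SE 0.08, adjusted p = 0.15) in Sal, -0.22 (SE 0.05, adjusted p = 0.0016) in PTZ0, -0.12 (SE 0.09, adjusted p = 0.74) in PTZ45 and -0.19 (SE 0.04, adjusted p = 7.8e-05) with the treatments combined. In PTZ0 the call of Glul was lost without Control PTZ0 replicate 2 (-0.20), without CBP-ifKO PTZ0 replicate 3 (-0.20) and without both, which are the PTZ0 libraries rich in choroid plexus genes (-0.18). Slc1a2, the transporter that takes up most glutamate in the forebrain, was not called. Slc1a2 had 42836 to 51664 normalized counts in Controls (median 46779) and 38890.0 to 49000.0 in CBP-ifKOs (median 43817), and the genotypes overlapped in Sal and PTZ0 and not in PTZ45. The difference in Slc1a2 was -0.08 (95% interval -0.18 to 0.01) with the treatments combined (adjusted p = 0.26).

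Aldoc, which encodes the aldolase of astrocytes, had 6780.3, 6641 and 6392 in Sal, 6417, 6573 and 6226 in PTZ0 and 5952 and 6268 in PTZ45 in Controls. The CBP-ifKO mice had 4618, 5273 and 6097 in Sal, 5476, 5563 and 5252 in PTZ0 and 5434, 4707 and 6383 in PTZ45, and 7 of 9 lay below every Control. Of the other 2, replicate 3 of Sal lay below the Controls of its own treatment and replicate 3 of PTZ45 above them. The log2 difference in Aldoc was -0.31 (SE 0.10, adjusted p = 0.049) in Sal, -0.24 (SE 0.05, adjusted p = 4.4e-04) in PTZ0, -0.15 (SE 0.11, adjusted p = 0.73) in PTZ45 and -0.24 (SE 0.06, adjusted p = 4.1e-04) with the treatments combined. In Sal 10 of the 13 alternatives lost the call of Aldoc, with log2 fold changes of -0.43 to -0.22 over all 13, and 9 of 13 lost that of Slc1a3, with -0.27 to -0.21. In PTZ0 Aldoc lost its call in 2 of 13, the single fit of all libraries and the removal of the choroid plexus libraries. With the treatments combined that removal kept the call of Aldoc, at -0.15 (SE 0.05, adjusted p = 0.044 by DESeq2).

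S100b had 1015, 975 and 989.9 in Sal, 1056, 999 and 1029 in PTZ0 and 919.7 and 1029 in PTZ45 in Controls. In CBP-ifKOs S100b had 736, 845 and 927 in Sal, 799, 924 and 760.1 in PTZ0 and 835, 804 and 1050.5 in PTZ45, with no overlap in Sal and PTZ0 and with the highest and the lowest values of PTZ45. The difference in S100b was -0.26 (SE 0.10, adjusted p = 0.26) in Sal, -0.31 (SE 0.09, adjusted p = 0.01) in PTZ0, a call that 7 of 13 alternatives lost, -0.12 (SE 0.13, adjusted p = 0.87) in PTZ45 and -0.24 (SE 0.06, adjusted p = 0.0016) with the treatments combined. With the lane as a term S100b stood at -0.06 (SE 0.19), and without the choroid plexus libraries at -0.17 (SE 0.07), neither of them called. Gpc5, a heparan sulfate proteoglycan of the cell surface, had 579 to 686 in Controls and 498 to 591 in CBP-ifKOs, where 8 of 9 libraries lay below every Control, and a log2 difference of -0.20 (SE 0.05, adjusted p = 2.7e-04). Fabp7, a fatty acid binding protein that is also made by radial stem cells, had 138 to 233 in Controls and 125 to 198 in CBP-ifKOs, a wide overlap, and a log2 difference of -0.30 (SE 0.11, adjusted p = 0.03).

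The 2 connexins that join astrocytes by gap junctions were both called with the treatments combined, and in no single treatment. Gja1 had 2307, 2258 and 2569 in Sal, 2406, 2366 and 2266 in PTZ0 and 2420.4 and 2766 in PTZ45 in Controls. Its levels in CBP-ifKOs were 2164, 2149.7 and 2219 in Sal, 2064, 2385 and 2125 in PTZ0 and 2391, 2306 and 2575 in PTZ45, which overlapped with the Controls in PTZ0 and PTZ45. The difference was -0.11 (SE 0.04, adjusted p = 0.045) for Gja1 and -0.19 (SE 0.07, adjusted p = 0.029) for Gjb6, whose levels ran from 388 to 574 in Controls and from 369 to 466 in CBP-ifKOs. Within lane 4 the values were -0.25 (SE 0.10) for Gja1 and -0.05 (SE 0.15) for Gjb6. Slc4a4 was the 1 member that rose, from 3603 to 3874 in Controls to 3680 to 4212 in CBP-ifKOs, by 0.08 (SE 0.03, adjusted p = 0.047) on the log2 scale. Of 27 alternatives, 21 lost the call of Slc4a4, 19 that of Gja1, 12 that of Gjb6 and 9 that of Fabp7, against 1 to 3 for each of the other 9 members called.

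Aqp4 and Aldh1l1, both often used to mark astrocytes, were not called. Aqp4 had 2233, 2044 and 2045 in Sal, 2208, 2078 and 2186 in PTZ0 and 1875 and 2442 in PTZ45 in Controls. The CBP-ifKO libraries of Aqp4 held 1927, 2175 and 2010.0 in Sal, 1776, 2323 and 2038 in PTZ0 and 2356, 1913 and 2442 in PTZ45, across the same range. With the treatments combined the difference in Aqp4 was -0.03 (95% interval -0.15 to 0.09) and the adjusted p was 0.79. Aldh1l1 had 459 to 569 in Controls (median 505) and 423 to 566 in CBP-ifKOs (median 475), and its difference was -0.07 (95% interval -0.18 to 0.05, adjusted p = 0.47). A small part of the exons of Aldh1l1 is shared with 2 annotated noncoding genes. The other homeostatic members that were not called were Cldn10, Ppp1r3c, Mlc1, Ndrg2, Fgfr3, Ntsr2, Hepacam, Slc7a10, Atp1b2 and Sox9, with log2 fold changes from -0.13 (Cldn10) to 0.15 (Sox9). Ndrg2 came close to the threshold (-0.10, SE 0.04, adjusted p = 0.051), with 8 of 9 CBP-ifKO libraries below every Control. Sox9, a transcription factor, and the sodium pump subunit Atp1b2 varied most among the homeostatic genes, from 117 to 264 and from 513 to 981 normalized counts over the 17 libraries.

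**Figure D3:**
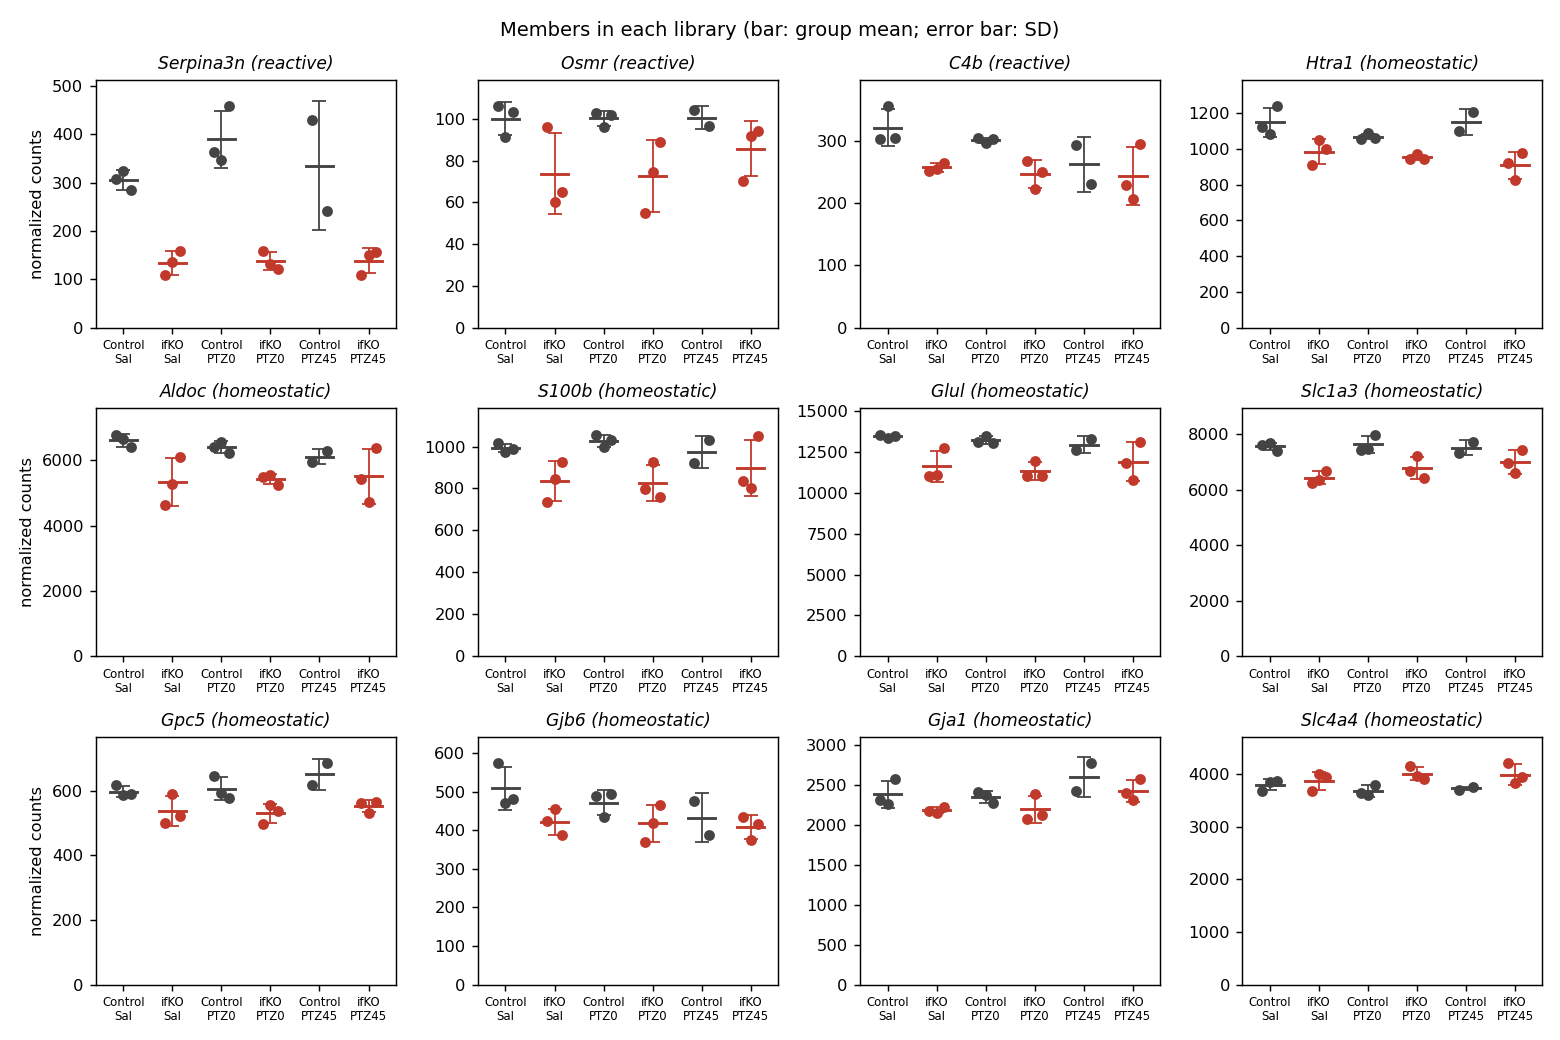
Normalized counts of 12 members called with the treatments combined, 1 point per library, with the group mean (bar) and SD (error bar), Controls in grey and CBP-ifKOs in red. Serpina3n and Htra1 are the panels in which all red points lie below all grey ones, and Slc4a4 is the panel in which the red means are higher.

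Whole libraries also differed within a genotype. The median log2 ratio of the 23 homeostatic members to their Control Sal means ran from -0.08 to 0.03 in the 8 Control libraries and from -0.26 to -0.06 in the 9 CBP-ifKO libraries. CBP-ifKO Sal replicate 1, one of the libraries rich in choroid plexus genes, was the lowest at -0.26, and CBP-ifKO PTZ45 replicate 3 was the highest of its genotype at -0.06 and the only one inside the Control range. Without the 5 libraries rich in choroid plexus genes 10 members were called with the treatments combined, 9 lower and 1 higher, where 11.8% of 15846 genes were called. Cd44 was among them, while S100b, Gja1, Gjb6 and C4b were not. The 13 members kept their direction there and within lane 4, and 12 of 13 kept it with the lane as a term, where Slc4a4 came to -0.000453.

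**Figure D4:**
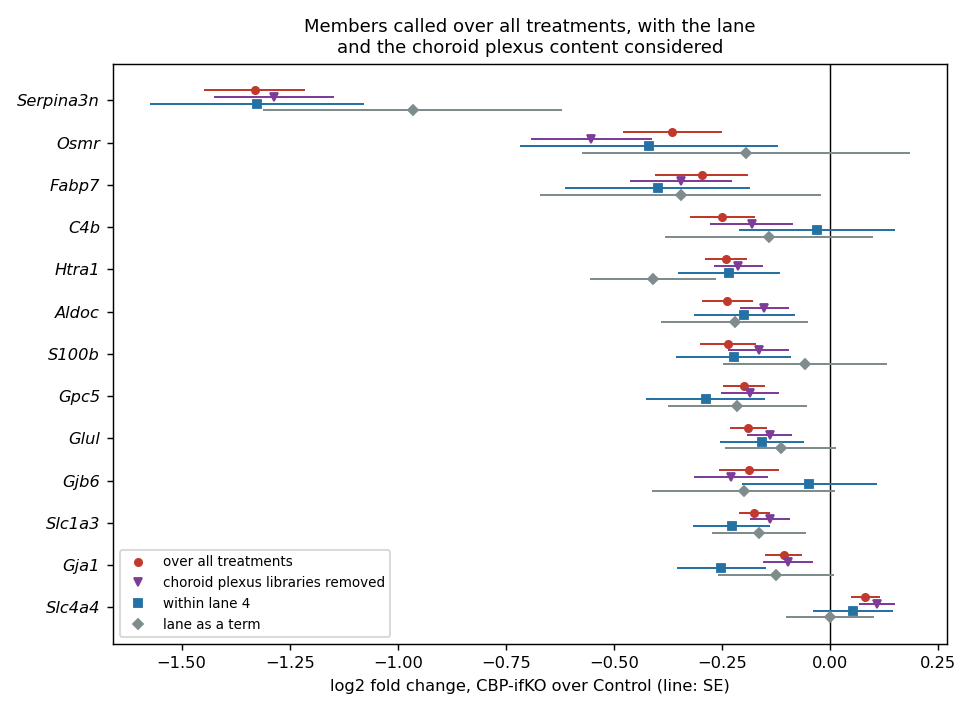
Log2 fold change of CBP-ifKO over Control (line, SE) for the 13 members called with the treatments combined, as fitted on all libraries, without the 5 libraries rich in choroid plexus genes, within lane 4 and with the lane as a term. Serpina3n lies between -1.33 and -0.97 in all 4 fits, and the lines are longest with the lane as a term.

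Kindling and the last PTZ dose were examined next. Between PTZ0 and Sal, which compares kindled with non-kindled mice that all got saline on the last day, none of the 31 members was called in either genotype by DESeq2 or by edgeR, where 0.00843% of 35602 genes were called in Controls and 0.0112% of 35705 in CBP-ifKOs. In Controls 2 members had an unadjusted p under 0.05, namely Serpina3n (0.35, SE 0.12, adjusted p = 1.0) and the growth factor receptor gene Fgfr3 (-0.26, SE 0.08, adjusted p = 1.0), and in CBP-ifKOs none had. Control PTZ0 and Control Sal share a lane. The 3 Control PTZ0 values of Serpina3n lay above all 3 of Control Sal. Gfap differed by -0.01 (95% interval -0.18 to 0.16) in Controls and by -0.05 (95% interval -0.24 to 0.14) in CBP-ifKOs, and Vim by 0.06 (95% interval -0.16 to 0.28) and 0.04 (95% interval -0.31 to 0.39).

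Between PTZ45 and Sal none of the 31 members was called either, by DESeq2 or by edgeR, where 1.17% of 17367 genes were called in Controls and 0.294% of 19757 in CBP-ifKOs. An unadjusted p under 0.05 was found for 2 members in Controls, Fgfr3 (-0.33, SE 0.10, adjusted p = 0.084) and Mlc1, which marks astrocyte contacts at vessels (-0.22), and for 3 in CBP-ifKOs, Fgfr3 (-0.22, SE 0.10, adjusted p = 0.93), Atp1b2 (-0.38) and the glycogen-targeting gene Ppp1r3c (0.23). Fgfr3 was not called in any of these, and its Control values were 1414, 1407 and 1236 in Sal, 1215, 1062 and 1111 in PTZ0 and 1095 and 1064 in PTZ45, with every kindled Control below every Sal Control. Part of its exons, 998 bases, is shared with a gene on the opposite strand. Gfap differed by -0.15 (95% interval -0.36 to 0.06) in Controls and by 0.04 (95% interval -0.18 to 0.27) in CBP-ifKOs, Vim by -0.07 (95% interval -0.36 to 0.22) and 0.11 (95% interval -0.23 to 0.45), Serpina3n by 0.14 (95% interval -0.24 to 0.52) and 0.04 (95% interval -0.38 to 0.46), and C4b by -0.29 (95% interval -0.60 to 0.03) and -0.09 (95% interval -0.40 to 0.23). The 5 astrocyte genes Aqp4, Slc1a2, Slc1a3, Gja1 and Glul all lay between -0.06 and 0.15 in both genotypes. Without CBP-ifKO Sal replicate 3, Atp1b2 was called in CBP-ifKOs at -0.57.

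Between PTZ45 and PTZ0, kindled mice with and without the last dose, no member was called by DESeq2 or by edgeR, where 1.25% of 17982 genes were called in Controls and 0.0872% of 26374 in CBP-ifKOs. With an unadjusted p under 0.05 there were 3 members in Controls (Slc1a2 at 0.14, Atp1b2 at 0.29 and Mlc1 at -0.20) and 1 among the CBP-ifKOs (Fgfr3 at -0.20). Serpina3n differed by -0.22 (95% interval -0.89 to 0.46) and Gja1 by 0.14 (95% interval -0.01 to 0.29) in Controls. Without Control PTZ45 replicate 1 both were called, at -0.69 for Serpina3n and 0.24 for Gja1. That fit has a single PTZ45 library, which is assumed to vary like the PTZ0 libraries, and the count of genes called went there from 225 to 499. The genotype by PTZ45 and genotype by PTZ0 interactions called none of the 31 members by DESeq2 or edgeR, and none had an unadjusted p under 0.05, where 0.329% of 20945 genes and 0.0% of 38110 were called. For Serpina3n they were -0.10 (95% interval -0.67 to 0.48) and -0.32 (95% interval -0.76 to 0.12), and for Gfap 0.19 (95% interval -0.14 to 0.53) and -0.04 (95% interval -0.32 to 0.24).

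**Figure D5:**
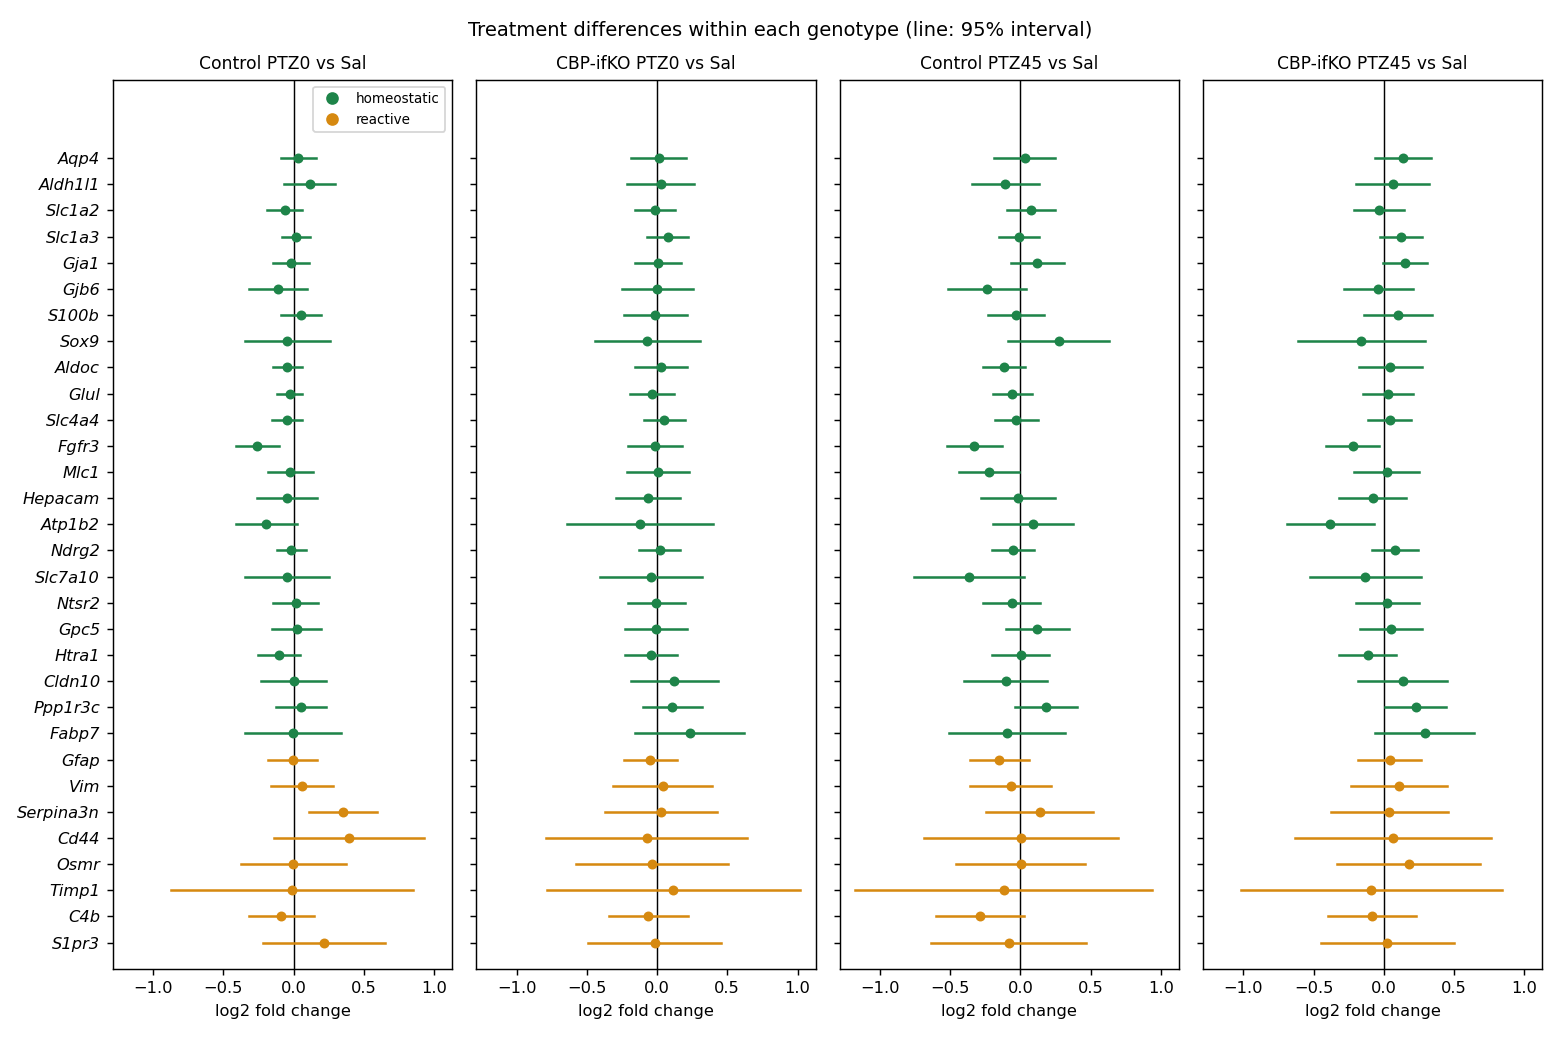
Log2 fold change of PTZ0 and of PTZ45 over Sal in each genotype for the 31 members (95% interval as a line), homeostatic genes in green and reactive genes in orange. No member was called, and the lines are longest for the lowly counted Timp1 and Cd44.

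Other genes of the cell type were followed through lists written beside the members. Of 30 other astrocyte genes 6 fell (20.0%, against 11.5% of all genes) and none rose in CBP-ifKOs with the treatments combined, with a median of -0.07. They were led by Grm3, a metabotropic glutamate receptor (-0.38, SE 0.05, adjusted p = 2.0e-10), Acsbg1, an acyl-CoA synthetase (-0.24, SE 0.06, adjusted p = 0.0031), Ptprz1 (-0.23, SE 0.04, adjusted p = 8.7e-06), the transcription factor Nfib (-0.21, SE 0.03, adjusted p = 1.5e-07) and Apoe, the main lipid carrier of the brain (-0.20, SE 0.06, adjusted p = 0.003). In PTZ0 alone 6 of the 30 were lower, including Mt3 (-0.28, SE 0.08, adjusted p = 0.016) and Clu (-0.23, SE 0.07, adjusted p = 0.018). Mt3, a metallothionein, also fell in Control PTZ45 against Sal (-0.40, SE 0.11, adjusted p = 0.021) and against PTZ0 (-0.44, SE 0.09, adjusted p = 1.1e-04), as Acsbg1 did against PTZ0 (-0.30, SE 0.08, adjusted p = 0.025). Mt3 and Acsbg1 are the genes of that list that were called in a treatment comparison. Both comparisons use the same 2 Control PTZ45 libraries, and in both the lane differs with the treatment.

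Of 33 other reactive astrocyte genes 25 could be tested, and 3 fell in CBP-ifKOs with the treatments combined, a share close to the 11.5% of all genes that fell. They were S100a10 (-0.63, SE 0.10, adjusted p = 4.7e-08), Amigo2 (-0.26, SE 0.08, adjusted p = 0.012) and Ptgs2 (-0.94, SE 0.23, adjusted p = 6.8e-04). S100a10 was also lower in Sal (-0.78, SE 0.20, adjusted p = 0.01) and in PTZ0 (-0.70, SE 0.19, adjusted p = 0.0059). All 3 are expressed in hippocampal neurons too. The STAT3 pathway runs from the receptors of the interleukin 6 family to STAT3. Of its 13 listed genes 9 could be tested and 2 fell and 2 rose with the treatments combined, where 11.5% of all genes fell and 7.76% rose. Those that fell were Stat3 itself (-0.17, SE 0.06, adjusted p = 0.015) and Lifr, the receptor of leukemia inhibitory factor (-0.13, SE 0.04, adjusted p = 0.0057). Those that rose were Il6st, the shared receptor subunit (0.12, SE 0.04, adjusted p = 0.045), and Pias3, an inhibitor of STAT3 (0.24, SE 0.08, adjusted p = 0.022).

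Markers of other cell types were compared in the same way. All 3 listed genes of oligodendrocyte precursors fell with the treatments combined, Cspg4 (-0.31, SE 0.08, adjusted p = 6.5e-04), Pdgfra (-0.30, SE 0.05, adjusted p = 5.9e-07) and Gpr17 (-0.25, SE 0.07, adjusted p = 0.0058), and their summed level was 1604 to 1790.0 in Controls and 1282 to 1477 in CBP-ifKOs. The 8 genes of oligodendrocytes had a median of -0.16 and the 10 of microglia one of -0.14, with none called by DESeq2 in either list, 6 and 1 of them at an unadjusted p under 0.05, and all of their values below 0. In PTZ0 alone 3 of the 8 oligodendrocyte genes were lower, namely Cnp (-0.29, SE 0.08, adjusted p = 0.009), Cldn11 (-0.29, SE 0.09, adjusted p = 0.04) and Mal (-0.27, SE 0.08, adjusted p = 0.024). Their summed levels overlapped, at 32562 to 43475 and 30626 to 42360.0 for oligodendrocytes and at 3315 to 3941 and 2851 to 4056 for microglia in Controls and CBP-ifKOs. The 7 genes of excitatory neurons had a median of -0.11, and among them Rbfox3 (-0.31, SE 0.06, adjusted p = 1.4e-05), Snap25 (-0.19, SE 0.03, adjusted p = 5.5e-08) and Syt1 (-0.12, SE 0.03, adjusted p = 0.0017) fell while Prox1, a gene of dentate granule neurons (0.26, SE 0.06, adjusted p = 4.4e-04), rose. The 6 genes of stem and progenitor cells had a median of -0.25, with all 6 below 0, and the 7 of leptomeningeal fibroblasts one of -0.28, with 6 below 0. Of the genes of stem and progenitor cells the cycling gene Mki67 fell (-0.34, SE 0.10, adjusted p = 0.0096), of 8 genes of endothelial and mural cells the pericyte gene Rgs5 (-0.18, SE 0.05, adjusted p = 0.0012), and of the fibroblast genes Dcn (-0.71, SE 0.21, adjusted p = 0.0054), with no other gene of these 3 lists called, and none of the 4 ependymal genes and the 1 choroid plexus gene that could be tested. The part of these other cell types in the values of the members was not tested.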

How the data were processed

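Single-end reads of 50 bases from hippocampal total RNA were trimmed by the authors with trim_galore 0.6.4, aligned with STAR 2.6.1 to mm10 (GRCm38), kept above a mapping quality of 10 and counted on exons with Rsubread. The authors deposited raw counts per gene, not normalized. Whether counting used strand is not given in the sources used here. Of 18 count columns, 1 matched no sample and was not used. By its name it resembles the pair of Control PTZ45 columns. Symbols, positions and GC content came from GENCODE M21 (99.4% of IDs), and lengths, which the authors deposited beside the counts, from the table itself. RPKM were computed here.

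The members and lists were chosen with earlier results of these data known. The main test was the two-sided Wald test of DESeq2 1.42.0 in R 4.3.3, as in the methods of the study, on the libraries compared, over all genes with at least 1 count, called at a Benjamini-Hochberg adjusted p under 0.05 with independent filtering. The genotype with the treatments combined used all 17 libraries with treatment as a term. Intervals are 95% Wald intervals. Samples are separate mice, and no 2 libraries of a group agreed within sampling noise (chi-square per degree of freedom 2.31 to 18.0 over 16 pairs). The text accounts for all members, gives full statistics for those called and for 10 defining genes, and names at most 5 called genes per other list, those changed most of the genes averaging 50 normalized counts or more. Esr1 was added after its values were seen.

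Tried instead were edgeR 4.0.16 (quasi-likelihood test), TMM size factors, a filter of at least 10 counts in 2 libraries without independent filtering, 1 fit of all 17 libraries, the replicate number as a block, a GC correction (loess, span 0.5, genes averaging 20 or more) and leaving out each library. For the genotype with the treatments combined they included the lane as a term and only Sal and PTZ0. Added after seeing the data were the fit within lane 4 and the fits without the 5 libraries whose choroid plexus genes summed to over 5000.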

Additional observations from a re-analysis of the deposited data

Results flagged for a closer look

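Among the genes of all lists, Ptgs2 was the only one whose difference between PTZ45 and Sal, which covers kindling and the last dose together, itself differed between the genotypes by the interaction test of DESeq2 (log2 difference -1.77, SE 0.17, adjusted p = 6.6e-22). Ptgs2 encodes cyclooxygenase-2, is on the list of other reactive astrocyte genes, and is also induced by activity in excitatory neurons. Its mean ± SD in normalized counts went from 389 ± 3.87 in Control Sal (n = 3) and 437 ± 21.3 in Control PTZ0 (n = 3) to 1994 ± 395 in Control PTZ45 (n = 2). In CBP-ifKOs the means were 287 ± 9.93 in Sal, 337 ± 10.8 in PTZ0 and 435 ± 16.8 in PTZ45 (n = 3 each). The log2 fold change of PTZ45 over Sal was 2.35 in Controls and 0.59 in CBP-ifKOs. The cells that gave these reads cannot be told apart in bulk tissue.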

How the results depend on the processing

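With 0 members called, the comparisons of treatments and both interactions stayed at 0 under edgeR, TMM, the stricter filter, the single fit, the replicate block, the GC correction and the removal of the libraries rich in choroid plexus genes. Leaving out each library gave 0 to 1 members for CBP-ifKO PTZ45 against Sal, 0 to 2 for Control PTZ45 against PTZ0 and 0 in the others. For the genotype in Sal (3 members) edgeR, the stricter filter, the replicate block and the removal of the choroid plexus libraries each left 1, which was Serpina3n, and leaving out each library gave 1 to 6. In PTZ0 (4 members) the removal of the choroid plexus libraries left 1 and leaving out each library gave 2 to 6. In PTZ45 (1 member) TMM and the single fit gave 2 by adding Htra1, the replicate block and the removal of the choroid plexus libraries 0, and leaving out each library 0 to 1. With the treatments combined (13 members) leaving out each library gave 9 to 14, edgeR 11, the fit within lane 4 gave 1 and the lane as a term 0, where Slc4a4 turned to -0.000453. The cause of these losses was not tested, except that removing libraries leaves fewer samples.

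Of all genes, the genotype with the treatments combined called 3606, against 135 with the lane as a term, 528 within lane 4 and 1870.0 without the choroid plexus libraries. The replicate block called 122 genes against 306 in Sal, 410.0 against 852 in PTZ0 and 102 against 468 in PTZ45. Control PTZ45 called 204 against Sal, 73 with the block, and 225 against PTZ0, 94 with the block. CBP-ifKO PTZ45 called 58 against Sal, with 4 by edgeR, 91 in the single fit, 16 after the GC correction and 38 without the choroid plexus libraries, and 23 against PTZ0, with 9 by edgeR, 8 with the block and 8 without the choroid plexus libraries. Without those libraries 80.0 genes were called in Sal, 160.0 in PTZ0, 223 in PTZ45 and 121 in Control PTZ45 against Sal. edgeR called 157 in Sal, and the single fit 614 in Sal and 785 in PTZ45. The PTZ45 interaction called 69, with 43 by edgeR and 36 without the choroid plexus libraries. Leaving out each library gave 127 (without Control Sal replicate 2) to 620.0 genes (without CBP-ifKO Sal replicate 3) for the genotype in Sal, 327 to 913 in PTZ0 (lowest without Control PTZ0 replicate 1) and 153 to 365 in PTZ45 (lowest without Control PTZ45 replicate 1). It gave 109 to 164 for Control PTZ45 against Sal (lowest without Control PTZ45 replicate 2), 133 to 499 against PTZ0 (without Control PTZ0 and Control PTZ45 replicate 1), 16 to 92 for CBP-ifKO PTZ45 against Sal (without CBP-ifKO Sal replicates 2 and 1), 0 to 20.0 for Control PTZ0 against Sal (highest without Control Sal replicate 1) and 38 to 66 for the PTZ45 interaction (lowest without Control PTZ45 replicate 1). Deviations of same-numbered libraries from their group means correlated from -0.52 to 0.53, over 0.1 in 15 of 40 pairs. Of 17 libraries 7 correlated best with their own number. Deviations within groups this small depend on each other, and no chance level was computed. These values thus do not settle whether the replicate numbers pair the samples. The numbers are those of the sample titles, and Control PTZ45 replicate 2 carries the number 3 in its column name, so that the block and these correlations rest on the titles alone. Genes with few counts, such as Timp1 and Cd44, have intervals too wide to show a small difference at this depth.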
